A study of Mus musculus with 12 samples.

Results

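The Hoxa cluster is a row of homeobox genes on mouse chromosome 6, and 9 of them, Hoxa2, Hoxa3, Hoxa4, Hoxa5, Hoxa6, Hoxa7, Hoxa9, Hoxa10 and Hoxa11, were followed here in marrow cultures transduced throughout with a Hoxa9 retroviral vector. The 9 genes were taken by name, through every probe set that names one of them and no other gene. This gave 66 probe sets of the 318760 on the array that name a single gene, and 1 further probe set, which names Hoxa3 together with another gene, was left out. All 9 genes had at least 1 probe set that was not dim (mean log2 above 6.2592, the filter level), 34 of the 66 in all, and so entered the 20711 genes tested.

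Every group came from marrow progenitor cells of C57B/6 female mice, 12 weeks old and treated with 5-FU (5-fluorouracil, which kills dividing cells), transduced with MSCV constructs and grown in DMEM with 15% FCS, IL3, SCF and IL6. HOXA9+MEIS1 cells received Hoxa9 and full-length Meis1, HOXA9+MDHD cells received Hoxa9 and Meis1 with its homeodomain deleted, and HOXA9+MIY cells received Hoxa9 and the empty MIY vector. There were 4 arrays of each condition, with 2 harvested at week 4 and 2 at week 3. The design calls the 4 experiments of a condition independent, and the labels do not say whether arrays of the 2 weeks came from the same cultures, so p-values measure the spread between these samples. Which Hoxa9 probe sets meet RNA from the vector was not looked up, so RNA from the vector and from the cells' own Hoxa9 gene was not told apart. No array came from cells without the Hoxa9 vector, so no value shows what Hoxa9 itself did to its neighbours.

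HOX proteins are transcription factors that bind DNA through a homeodomain, and genes of the 3′ part of a cluster are switched on earlier and further forward in the embryo than those of the 5′ part. In blood, Hoxa genes are active in stem and progenitor cells and are turned down as cells mature, and high HOXA9 is common in human acute myeloid leukaemia. Meis1 is a TALE homeodomain protein that binds DNA beside Hoxa9 and hastens leukaemia in mice when both are overexpressed.

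In RefSeq on GRCm38.p6 the 9 genes span chr6:52162417-52245810, 83.4 kb, in the order Hoxa2 to Hoxa11, with Skap2 on the Hoxa2 side and Evx1 and Hibadh beyond Hoxa11. The Hoxa3 gene, chr6:52169059-52213067, covers Hoxa4, Hoxa5 and Hoxa6, so RNA of the shared stretch cannot be assigned to one gene from the symbols alone. Positions of probe sets on the genes were not used here. Of the members, 8 had a RefSeq promoter entry, all on the minus strand, with a pair of starts for Hoxa10, and Hoxa4 had none. The 250 bases before the start are shown for Hoxa9, whose own promoter is distinct from the vector's, and for Hoxa2 and Hoxa3, the members whose window holds the Meis core TGACAG (or CTGTCA on the other strand), in capitals. The windows, 5′ to 3′ on the minus strand, are chr6:52227371-52227620 for Hoxa9, chr6:52164832-52165081 for Hoxa2 and chr6:52213068-52213317 for Hoxa3.
Hoxa9: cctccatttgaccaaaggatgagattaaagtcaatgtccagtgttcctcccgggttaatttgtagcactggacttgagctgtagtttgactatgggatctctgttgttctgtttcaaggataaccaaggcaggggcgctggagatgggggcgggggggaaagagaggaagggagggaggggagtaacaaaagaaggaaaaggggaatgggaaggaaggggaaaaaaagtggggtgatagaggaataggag
Hoxa2: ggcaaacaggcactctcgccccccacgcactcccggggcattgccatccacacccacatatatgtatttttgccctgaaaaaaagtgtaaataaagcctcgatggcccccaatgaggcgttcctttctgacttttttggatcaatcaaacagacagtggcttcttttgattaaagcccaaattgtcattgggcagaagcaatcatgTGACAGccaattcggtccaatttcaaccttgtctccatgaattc
Hoxa3: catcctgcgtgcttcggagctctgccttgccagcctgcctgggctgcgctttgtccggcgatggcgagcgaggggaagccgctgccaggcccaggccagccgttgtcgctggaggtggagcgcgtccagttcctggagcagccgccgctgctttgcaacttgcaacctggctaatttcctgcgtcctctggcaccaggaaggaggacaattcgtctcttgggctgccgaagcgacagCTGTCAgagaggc
The Meis core was found in 2 of the 9 member windows and in 15.9% of 32851 RefSeq promoter windows of the same length. The longer letters TGATTTAT and TGATTTAC, which HOX proteins bind together with a TALE partner, were found on either strand in none of the 9 member windows, against 0.837% and 0.496% of all windows. A match is a description of the letters and not of binding.

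Hoxa9 was strongly expressed on every array and differed little between the conditions. Its gene value was 13.39 and 13.27 at week 4 and 13.46 and 13.37 at week 3 in HOXA9+MEIS1, 13.41 and 13.18 at week 4 and 13.35 and 13.46 at week 3 in HOXA9+MDHD, and 13.22 and 13.26 at week 4 and 13.35 and 13.33 at week 3 in HOXA9+MIY (log2). The ranges of the 3 conditions overlapped, and the means stood in the order HOXA9+MEIS1 13.37 ± 0.080, HOXA9+MDHD 13.35 ± 0.123 and HOXA9+MIY 13.29 ± 0.059 (SD, n = 4 each), with no neighbours in that order apart beyond their spread. In limma, fitted over all genes with terms for condition and week, the Hoxa9 difference for HOXA9+MEIS1 against HOXA9+MIY was 0.08 ± 0.047 (SE, 95% interval -0.02 to 0.18, adjusted p = 0.372). The difference was 0.06 ± 0.047 for HOXA9+MDHD against HOXA9+MIY (-0.05 to 0.16, adjusted p = 0.679) and 0.02 ± 0.047 for HOXA9+MEIS1 against HOXA9+MDHD (-0.08 to 0.13, adjusted p = 0.901). The farthest bound of these intervals is a 1.14-fold difference. The 3 comparisons share arrays and are not independent of each other.

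The Hoxa9 value rests on 6 bright probe sets with means of 12.25 to 13.92, while the 7th, 4987555, had a mean of 3.71 and lay below the filter. The brightest, 5399337, averaged 13.94 ± 0.117 in HOXA9+MEIS1, 13.98 ± 0.092 in HOXA9+MDHD, and 13.85 ± 0.071 in HOXA9+MIY (SD, n = 4 each). Probe set 5475792 averaged 13.92, 13.90 and 13.90 in the same order of conditions, and 4502054 averaged 13.58, 13.50 and 13.48. The highest value anywhere in the table was 14.93, and whether signal is compressed near the top of the scale was not tested. Probe set 5410886 averaged 13.12 in HOXA9+MEIS1, 13.20 in HOXA9+MDHD, and 13.06 in HOXA9+MIY, and 4722338 averaged 12.80, 12.91 and 12.84. In these 5 probe sets every difference between conditions was at most 0.14 in size.

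The probe set 5268201 showed the widest spread of the 6. It stood at 12.45, 12.19, 12.58 and 12.48 in HOXA9+MEIS1, at 12.23, 11.76, 12.10 and 12.41 in HOXA9+MDHD and at 11.95, 12.28, 12.32 and 12.20 in HOXA9+MIY (week 4 arrays before week 3 arrays). The groups overlapped, and it was not called, with 0.30 ± 0.103 for HOXA9+MEIS1 against HOXA9+MDHD (adjusted p = 0.187) and 0.24 ± 0.103 for HOXA9+MEIS1 against HOXA9+MIY (adjusted p = 0.242, limma over all probe sets). The dim probe set 4987555 ran the other way, at 2.92, 4.06, 3.33 and 3.45 in HOXA9+MEIS1, at 3.35, 3.67, 4.04 and 3.63 in HOXA9+MDHD and at 3.56, 4.23, 4.19 and 4.06 in HOXA9+MIY. Its difference for HOXA9+MEIS1 against HOXA9+MIY was -0.57 ± 0.246 (adjusted p = 0.236), and the groups overlapped.

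**Figure D1:**
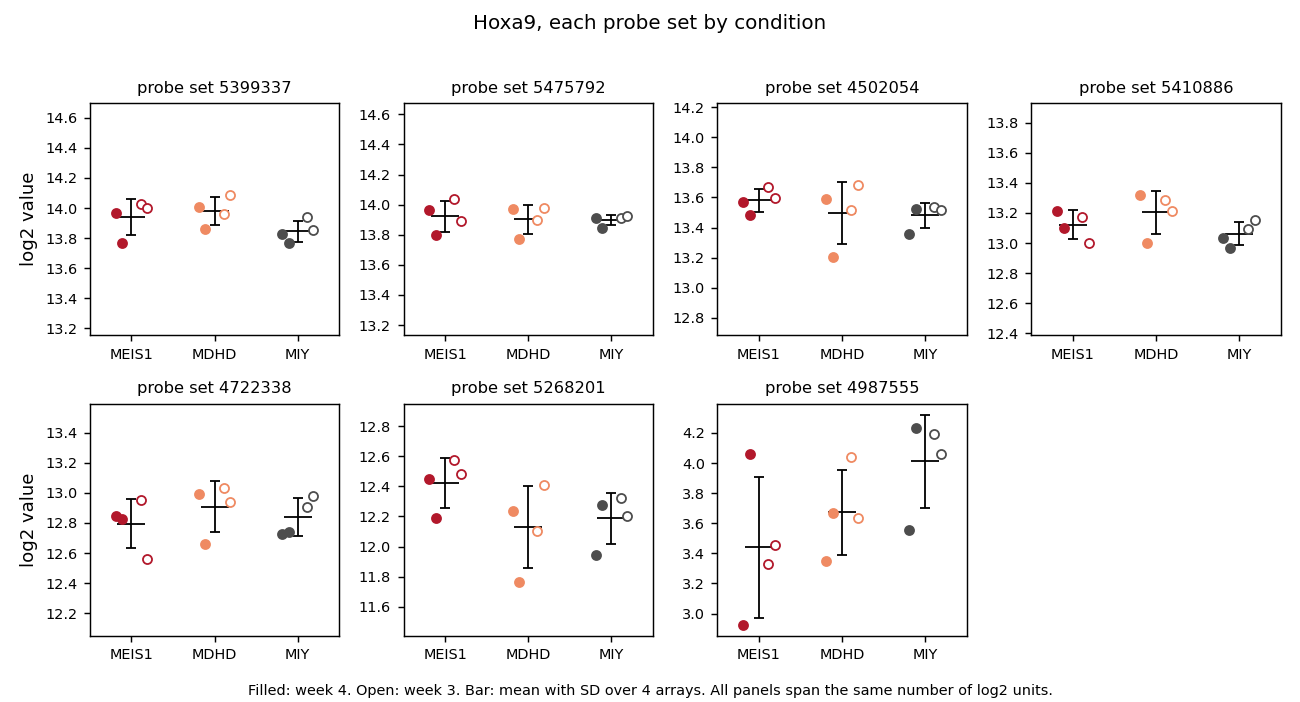
Log2 values of the 7 Hoxa9 probe sets on 12 arrays by condition, filled points week 4 and open points week 3, with bars for mean and SD (n = 4). The 6 bright probe sets lie between 11.76 and 14.08 in all conditions, and probe set 4987555 lies between 2.92 and 4.23.

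On several arrays the 6 bright probe sets stood together above or below their means. In HOXA9+MDHD at week 4, array 1 lay on average 0.09 above the probe sets' means and array 2 lay 0.22 below them, with 0 of 6 probe sets above their mean on array 2. All 6 lay above their mean on HOXA9+MEIS1 week 3 array 1 (mean deviation 0.14) and on HOXA9+MDHD week 3 array 2 (0.12). On HOXA9+MEIS1 week 3 array 2 they did not move together, with deviations from -0.28 to 0.23.

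None of the other 8 Hoxa genes was called in any comparison of conditions. Of 9 members, 0 were called for HOXA9+MEIS1 against HOXA9+MIY, where 10.8% of all genes were, 0 for HOXA9+MDHD against HOXA9+MIY (1.91% of all genes) and 0 for HOXA9+MEIS1 against HOXA9+MDHD (4.36%), by limma with Benjamini-Hochberg adjustment. At an unadjusted p under 0.05, 0 of 9 passed in each, against 22.1%, 13.4% and 15.3% of all genes. The 396 genes behind the share of 1.91% became 140 to 992 when single arrays were left out, the lowest without HOXA9+MIY week 3 array 1 and the highest without HOXA9+MDHD week 4 array 2. With 9 members, nothing particular to them is read from a count of 0. The median size of the members' differences was 0.06, 0.05 and 0.03 on the log2 scale in these 3 comparisons, against 0.09, 0.07 and 0.07 over all genes. The 95% intervals of the 9 members reached at most 1.26-fold, 1.33-fold and 1.32-fold, so changes larger than these lie outside them. In all 9 members the arrays of every pair of conditions overlapped, while the groups did not overlap in 11% of all genes for HOXA9+MEIS1 against HOXA9+MIY, 4.18% for HOXA9+MDHD against HOXA9+MIY and 5.21% for HOXA9+MEIS1 against HOXA9+MDHD.

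On the 3′ side, Hoxa2, a patterning gene of the hindbrain, stood at 7.26, 7.29, 7.26 and 7.31 in HOXA9+MEIS1, at 7.02, 7.39, 7.24 and 7.43 in HOXA9+MDHD and at 7.32, 7.21, 7.34 and 6.95 in HOXA9+MIY. The HOXA9+MEIS1 arrays were close together within the wider range of the other conditions. Hoxa3, a gene of pharyngeal arch patterning, stood at 7.13, 7.11, 7.25 and 7.23 in HOXA9+MEIS1, at 7.01, 7.01, 7.03 and 7.22 in HOXA9+MDHD and at 7.19, 7.20, 7.29 and 7.10 in HOXA9+MIY. Of the members it had the lowest adjusted p for HOXA9+MDHD against HOXA9+MIY (-0.13 ± 0.067, adjusted p = 0.448) and for HOXA9+MEIS1 against HOXA9+MDHD (0.12 ± 0.067, adjusted p = 0.477). With no filter on dim probe sets the first of these was -0.01.

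In the middle of the cluster, Hoxa4 averaged 8.44 ± 0.106 in HOXA9+MEIS1, 8.47 ± 0.137 in HOXA9+MDHD, and 8.51 ± 0.122 in HOXA9+MIY. Hoxa5, which shapes the lung and the axial skeleton, stood at 8.21, 7.82, 7.85 and 7.87 in HOXA9+MEIS1, at 7.75, 7.77, 7.81 and 8.35 in HOXA9+MDHD and at 7.72, 7.98, 8.22 and 7.94 in HOXA9+MIY. In both groups with a Meis1 vector 1 array stood above the other 3. Hoxa6 rested on 1 probe set and stood at 7.55, 7.62, 7.44 and 7.63 in HOXA9+MEIS1, at 7.32, 7.38, 7.30 and 7.68 in HOXA9+MDHD and at 7.71, 7.19, 7.78 and 7.58 in HOXA9+MIY. Its difference for HOXA9+MDHD against HOXA9+MIY, -0.15 ± 0.119 (95% interval -0.41 to 0.11, adjusted p = 0.672), was the largest of any member between conditions, and without HOXA9+MIY week 4 array 2 it was -0.27 and not called.

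The neighbours of Hoxa9 gave the narrowest and some of the wider spreads. Hoxa7, which lies next to Hoxa9 and like it is active in myeloid progenitors, had 8 probe sets above the filter and averaged 8.82 ± 0.088 in HOXA9+MEIS1, 8.86 ± 0.094 in HOXA9+MDHD, and 8.84 ± 0.077 in HOXA9+MIY. Hoxa10, on the other side and also a gene of early blood cells, stood at 7.75, 7.66, 7.71 and 7.54 in HOXA9+MEIS1, at 7.29, 7.87, 7.62 and 7.71 in HOXA9+MDHD and at 7.76, 7.61, 7.51 and 7.54 in HOXA9+MIY. The HOXA9+MDHD arrays spanned the full range of Hoxa10. Hoxa11, a gene of limb and uterus development, averaged 6.57 ± 0.078 in HOXA9+MEIS1, 6.59 ± 0.127 in HOXA9+MDHD, and 6.64 ± 0.043 in HOXA9+MIY, close to the filter level.

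**Figure D2:**
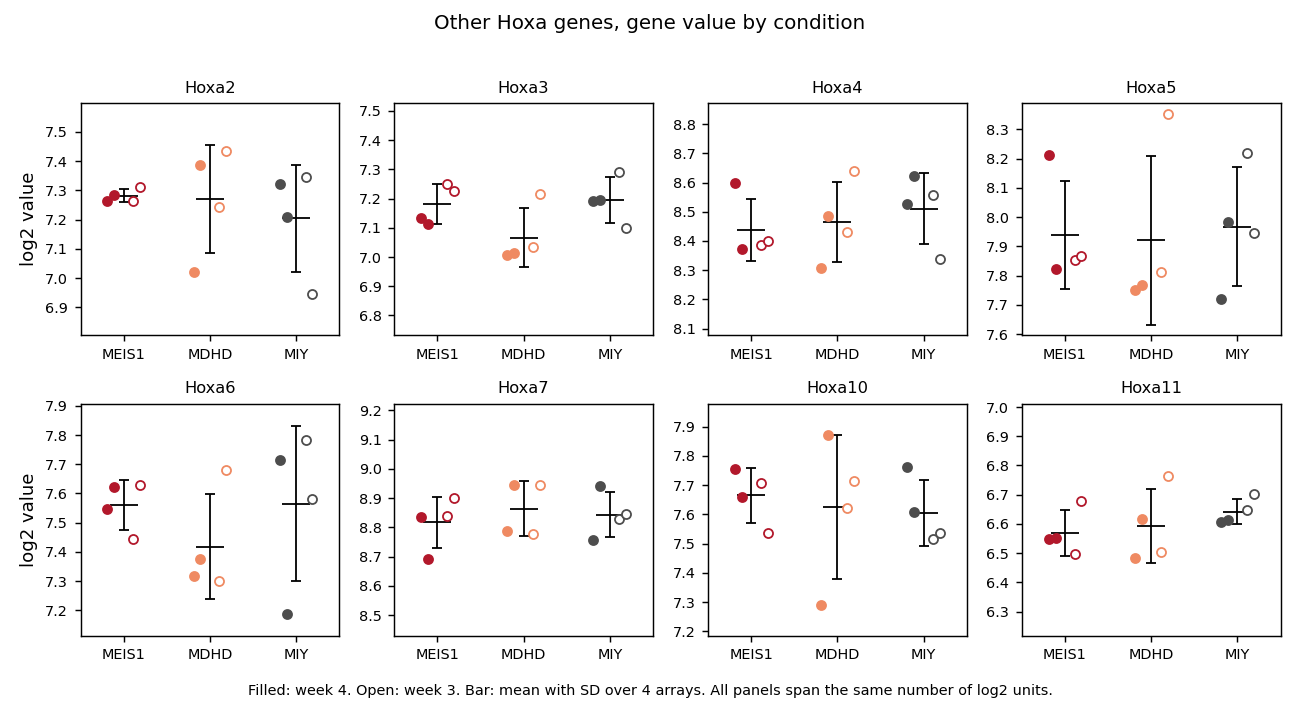
Log2 gene values of the other 8 Hoxa genes on 12 arrays by condition, filled points week 4 and open points week 3, with bars for mean and SD (n = 4). The conditions overlap in every gene, and the HOXA9+MDHD arrays of Hoxa10 run from 7.29 to 7.87.

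Probe set by probe set the picture was the same. Of the 66 member probe sets 0 were called for HOXA9+MEIS1 against HOXA9+MIY (6.7% of all probe sets), 0 for HOXA9+MDHD against HOXA9+MIY (1.22%) and 0 for HOXA9+MEIS1 against HOXA9+MDHD (2.78%). At an unadjusted p under 0.05, 4, 2 and 5 of 66 passed, against 17%, 10.8% and 12.1% of all probe sets. Above the filter lay 34 of the 66, against 233798 of all 318760, so the member probe sets were more often dim and the shares are not of equally bright probe sets. The lowest adjusted p belonged to a dim probe set of Hoxa2, 4764483 (-0.58 ± 0.192 for HOXA9+MEIS1 against HOXA9+MIY, adjusted p = 0.0924). The widest difference was that of a dim Hoxa5 probe set, 4487699, which was -1.04 ± 0.354 for HOXA9+MDHD against HOXA9+MIY (adjusted p = 0.227). Its HOXA9+MIY arrays ran from 4.36 to 6.16. The 32 probe sets below the filter had a median difference of 0.20 in size for HOXA9+MEIS1 against HOXA9+MIY, and the 34 above it 0.06.

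**Figure D3:**
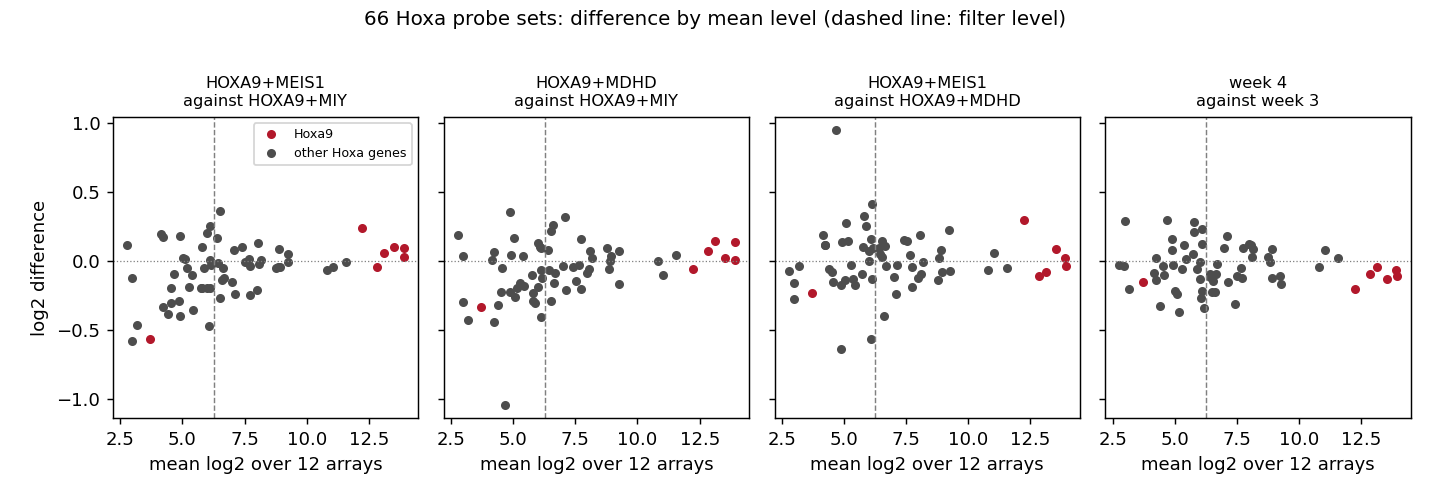
Log2 difference of each of the 66 Hoxa probe sets against its mean log2 over 12 arrays in the 4 comparisons, Hoxa9 in red, with the filter level of 6.2592 as a dashed line. Differences spread more widely left of the line, down to -1.04 for a Hoxa5 probe set.

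Between the weeks Hoxa9 had the lowest adjusted p of the members and did not pass the threshold. It averaged 13.29 ± 0.093 at week 4 and 13.39 ± 0.058 at week 3 (SD, n = 6 each), a difference of -0.10 ± 0.039 (95% interval -0.18 to -0.01, adjusted p = 0.0624), and the weeks overlapped, whereas they did not in 22.1% of all genes. All 7 of its probe sets had differences below 0, from -0.05 to -0.21, and none was called. Of the 9 members 0 were called by limma, against 39.8% of all genes, and 1, Hoxa9, passed an unadjusted p under 0.05, as did 46.5% of all genes. The 66 member probe sets were more often dim than all probe sets. Of the 66, 0 were called, against 30.6% of all probe sets, and 4 passed an unadjusted p under 0.05, as did 38.8% of all probe sets. Of these 4, Hoxa7 probe set 5395949 had the lowest adjusted p (-0.32 ± 0.121, adjusted p = 0.0597). The other members lay between -0.13 (Hoxa5) and 0.05 (Hoxa10).

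The direction of the week difference depended on how the arrays were scaled. Centring each array on its median moved the median of all genes by 0.12, and Hoxa9 was then at 0.02 (adjusted p = 0.708), while quantile normalization moved that median by 0.10 and gave Hoxa9 -0.06 (adjusted p = 0.182). Relative to the median of all genes, Hoxa9 was lower at week 4 under each scaling. Of all genes called between the weeks, 29.4% were higher at week 4 as deposited, 59.0% after centring and 57.9% after quantile normalization. None of the 9 members was called between the weeks under either scaling.

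No condition difference of a member was shown to depend on the week. Of 9 members 0 had a called interaction in any of the 3 pairs of conditions, where 0 of 20711 genes did (0%). At an unadjusted p under 0.05, 0 members and 1345 genes (6.49%) passed for HOXA9+MEIS1 against HOXA9+MIY, 0 and 997 (4.81%) for HOXA9+MDHD against HOXA9+MIY, and 0 and 1551 (7.49%) for HOXA9+MEIS1 against HOXA9+MDHD. The intervals of the interaction reached 2.08-fold, so this design bounds it less tightly.

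Of the genes beside the members, Skap2 was called between conditions and Skap2 and Hibadh between the weeks. Skap2, a signalling adaptor of blood cells, averaged 9.77 ± 0.255 in HOXA9+MEIS1, 9.98 ± 0.181 in HOXA9+MDHD, and 10.10 ± 0.180 in HOXA9+MIY (SD, n = 4 each). It fell by 0.33 ± 0.052 in HOXA9+MEIS1 against HOXA9+MIY (adjusted p = 0.0012) and by 0.21 ± 0.052 against HOXA9+MDHD (adjusted p = 0.0407). It was also lower at week 4, by -0.35 ± 0.043 (adjusted p = 3.18e-05), as was Hibadh, a mitochondrial enzyme of valine breakdown (-0.24 ± 0.041, adjusted p = 0.000406), and both stayed lower and called under the 2 other scalings. Of 11 neighbours listed 4 were measured. Neither Evx1 nor Hoxa11as, the antisense transcript that overlaps the start of Hoxa11, was called in any comparison of conditions. Between the weeks Hoxa11as was at 0.20 ± 0.080 (adjusted p = 0.0612) and not called as deposited, but was called higher at week 4 after centring (0.32, adjusted p = 0.0103) and after quantile normalization (0.33, adjusted p = 0.00989). Evx1 was called between the weeks under none of the 3 scalings. Whether the flanking genes differ from the members was not tested.

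**Figure D4:**
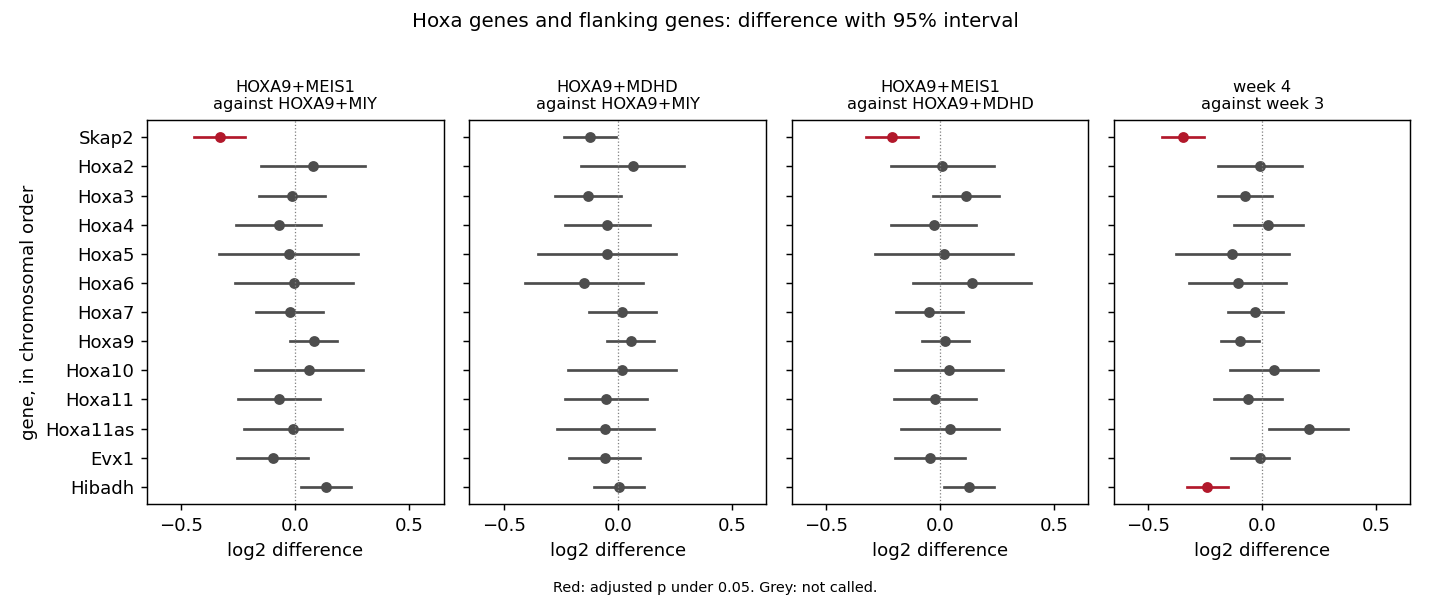
Log2 differences with 95% intervals (horizontal axis) for the 9 Hoxa genes and 4 neighbours in chromosomal order, one panel for each comparison, red where the adjusted p was under 0.05. Skap2 is called in 3 panels and Hibadh in 1, and no Hoxa gene is called.

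Of the other Hox clusters, 26 of 28 listed Hoxb, Hoxc and Hoxd genes were measured, and 0 were called in any comparison of conditions. The lowest p was that of Hoxc10 for HOXA9+MEIS1 against HOXA9+MIY (-0.46 ± 0.146, adjusted p = 0.066). Of all genes, 10.8% were called for HOXA9+MEIS1 against HOXA9+MIY, 1.91% for HOXA9+MDHD against HOXA9+MIY and 4.36% for HOXA9+MEIS1 against HOXA9+MDHD. Between the weeks 3 of 26 rose and 0 fell, and 5 rose after centring and 4 after quantile normalization. As deposited, 2426 of 20711 genes rose and 5815 fell, and nothing particular to these clusters is read from the count. The 3 were Hoxb4 (0.25 ± 0.074, adjusted p = 0.016), Hoxb13 (0.20 ± 0.069, adjusted p = 0.0324) and Hoxb8 (0.17 ± 0.045, adjusted p = 0.00735). Hoxb4 and Hoxb8 are known for expanding blood progenitors when overexpressed.

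Of 10 measured TALE genes 6 rose in HOXA9+MEIS1 against HOXA9+MIY, among them Meis1 itself (2.87 ± 0.117), Pbx4 (0.69 ± 0.093), Pknox1 (0.69 ± 0.074) and Pbx3 (0.58 ± 0.111), and 4 did not pass. In HOXA9+MDHD against HOXA9+MIY 1 of 10 rose, Meis1 (2.59 ± 0.117), the gene whose sequence the vector carries. Of all genes, 10.8% and 1.91% were called in these comparisons. Of 34 measured regulators of Hox genes, 2 rose and 2 fell in HOXA9+MEIS1 against HOXA9+MIY, where 10.8% of all genes were called. Nothing particular to the regulators is read from this count. Bmi1, a Polycomb subunit, rose by 0.36 ± 0.099 (adjusted p = 0.0362) and Npm1, a nucleolar protein, by 0.20 ± 0.048 (adjusted p = 0.0201). Mllt3 and Aff4, both of the elongation complexes that MLL fusions recruit, fell by 0.39 ± 0.074 (adjusted p = 0.00405) and 0.28 ± 0.078 (adjusted p = 0.0368). None of the 34 was called for HOXA9+MDHD against HOXA9+MIY, where Npm1 had the lowest p (0.17 ± 0.048, adjusted p = 0.113). Between the weeks 5 regulators rose and 15 fell, where 39.8% of all genes were called, but after centring 11 rose and 9 fell. As deposited, Bmi1 (-0.78), Xpo1 (-0.61) and Psip1 (-0.53) were lower and Ezh1 (0.69) was higher at week 4.

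Some of the genes tied to Hoxa9 in earlier work were called between conditions, and most were not. Of 19 measured, 6 rose and 1 fell in HOXA9+MEIS1 against HOXA9+MIY, where 10.8% of all genes were called. Flt3, a cytokine receptor of early progenitors, averaged 9.96 ± 0.155 in HOXA9+MEIS1, 7.46 ± 0.478 in HOXA9+MDHD, and 6.79 ± 0.095 in HOXA9+MIY, a difference of 3.17 ± 0.172 against HOXA9+MIY. Erg, an ETS transcription factor of stem cells (1.18 ± 0.101), and the progenitor surface protein gene Cd34 (1.24 ± 0.176) also rose, and Id2, an inhibitor of helix-loop-helix factors, fell by 1.48 ± 0.179. For HOXA9+MDHD against HOXA9+MIY 4 rose and 0 fell (1.91% of all genes were called), with Cd34 at 1.15, Erg at 0.80, Msi2 at 0.58 and Foxp1 at 0.38. Whether these changes are tied to Hoxa9 was not tested.

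Markers of maturation moved with the conditions and with the week beside these values. Of 10 late neutrophil markers 9 fell in HOXA9+MEIS1 against HOXA9+MIY and 4 in HOXA9+MDHD against HOXA9+MIY, with median differences of -2.36 and -1.36. Of all genes, 10.8% and 1.91% were called in these comparisons. Of 9 measured monocyte and macrophage markers 6 fell and 1 rose, and 3 fell and 1 rose. Of 10 stem and progenitor markers 6 rose and 2 fell, and 5 rose and 1 fell. Meis1, whose sequence the vectors carry, is in the stem and progenitor list and was among the genes that rose in both comparisons. Flt3, Erg and Cd34 are in that list as well as among the genes tied to Hoxa9. In each of the stroma, T and NK, B lymphoid, mast cell, megakaryocyte, erythroid and eosinophil lists, of 4 to 6 measured genes, at most 1 member was called in a comparison of conditions. Some of these calls were large. Against HOXA9+MIY, the eosinophil gene Prg2 was at -2.02 in HOXA9+MEIS1 and -2.51 in HOXA9+MDHD. The erythroid gene Hbb-b1 was at 1.54 in both, and the megakaryocyte gene Pf4 was at -0.69 in HOXA9+MEIS1. Between the weeks 5 of the 10 late neutrophil markers rose and 0 fell (median difference 0.50), among them Il8rb, a chemokine receptor (1.56 ± 0.246), and 7 rose after centring or quantile normalization. Of all genes, 39.8% were called between the weeks as deposited. Of the monocyte and macrophage markers 2 of 9 rose and 0 fell, with Fn1 at 1.22 ± 0.327, and 4 rose after centring or quantile normalization. Of the stem and progenitor markers 1 of 10 rose and 2 fell as deposited, but 3 rose and 1 fell after centring or quantile normalization. Of the 4 megakaryocyte markers measured 2 rose, the platelet chemokine genes Ppbp (1.49 ± 0.280) and Pf4 (0.75 ± 0.105). Of 6 mast cell and basophil markers 2 fell, both IgE receptor subunits, Fcer1a (-2.06 ± 0.371) and Ms4a2 (-0.98 ± 0.115), and after centring or quantile normalization 2 rose and 2 fell. The eosinophil list had 1 marker higher and the erythroid, B lymphoid, T and NK and stroma lists had 0 called as deposited. In bulk samples fewer cells of a type and less RNA per cell cannot be told apart, and the part of these shifts in the Hoxa values, week differences included, was not tested.

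By the pattern over the 12 arrays, the genes most like Hoxa9 were Sergef (Pearson r = 0.928), Rpn2 (0.925) and Stxbp3a (0.912). The arrays share condition, week and scaling, and the values are a description. Their week differences, given for the deposited scaling only, were -0.29 ± 0.10 for Sergef, -0.10 ± 0.031 for Rpn2 and -0.06 ± 0.054 for Stxbp3a. These genes were picked for following Hoxa9 over the same arrays, so their week differences are not results separate from that of Hoxa9.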

How the data were processed

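RNA was measured on Affymetrix mouse exon arrays, 1 array for each of 12 samples. The authors deposited log2 values per exon-level probe set, made with RMA in Affymetrix Expression Console per the submitters' processing notes, versions not given. RMA scales arrays to each other, so a shift of most genes between groups can be hidden or displaced. The number of arrays limits the precision.

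Of 1256831 probe sets, 318760 named 1 gene in the platform annotation, and 6684 that named several were left out. Probe sets with a mean log2 above 6.2592, the 50th percentile of all, were kept, and a gene's value was their median polish, or the single probe set. Median polish stopped at a relative tolerance of 1e-04 within 50 iterations, without convergence in 2 genes. This tolerance was settled after values had been seen: 0.01, the default in R, was run first and gave counts of called genes unlike those of an earlier analysis of these data, then 1e-06, which left 29 genes without convergence, and 1e-04 gave the earlier analysis's counts. Both other values are reported as alternatives.

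limma 3.58.1 in R 4.3.3 (lmFit, eBayes with trend, two-sided) was fitted to the 12 arrays together, with terms for condition and week. There were 8 residual degrees of freedom, with 4.09 prior degrees of freedom for genes and 7.82 for probe sets. Interaction terms were in a separate fit of the genes, with 6 residual and 4.07 prior degrees of freedom. P-values were adjusted by Benjamini-Hochberg over the 20711 genes or the 318760 probe sets, and an adjusted p under 0.05 made a call. A value after ± is the standard error of a log2 difference, or the SD where so marked. The code was tested on simulated data. Tables were made with Python 3.11.15 and pandas 2.3.3, plots with matplotlib 3.10.9.

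The members and the gene lists were chosen with earlier results of these data known. All members were named. From each other list up to 4 called genes with the largest change per comparison were eligible, or the 1 with the lowest p. Promoter sequences are from RefSeq, GRCm38.p6. The numbers 1 and 2 in the labels were checked on residuals, between arrays of different conditions in the same week. Matched pairs correlated between -0.315 and -0.015 and unmatched pairs between -0.271 and 0.047, so the numbers were not used as blocks. Whether a number marks the same culture of a condition in both weeks was not checked by these correlations. Alternatives varied the filter, the summary, the scaling, the terms and the arrays.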

Additional observations from a re-analysis of the deposited data

Results flagged for a closer look

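Of 48 groups of 4 arrays examined for the 9 Hoxa genes and the 7 Hoxa9 probe sets, 5 held an array far from the other 3 by Dixon's criterion, which chance flags in about 1 group in 20. In HOXA9+MDHD, week 3 array 2 was high for Hoxa3 (7.22, the others 7.01 to 7.03) and for Hoxa5 (8.35, the others 7.75 to 7.81). In HOXA9+MEIS1, week 4 array 1 was high for Hoxa4 (8.60, the others 8.37 to 8.40) and for Hoxa5 (8.21, the others 7.82 to 7.87). Of the probe sets behind this Hoxa5 value, 4774896 was high there (7.29) and 4313058 was the lowest of its group (9.13). In HOXA9+MIY, week 4 array 1 was low for Hoxa9 probe set 4502054 (13.36, the others 13.51 to 13.53).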

How the results depend on the processing

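The absence of called Hoxa genes between conditions held under every alternative run, the 2 tolerances of the median polish chosen after seeing the data included: 0 of 9 genes with each array left out (0 to 0) and under each filter, summary, scaling and choice of terms, and 0 interactions. Under the stricter filter Hoxa6 had no value, which left 8 genes. Between the weeks 0 to 1 gene was called when single arrays were left out: Hoxa9, at -0.12 (adjusted p = 0.0438) without HOXA9+MEIS1 week 4 array 1 and -0.13 (adjusted p = 0.0136) without HOXA9+MDHD week 4 array 1. Over the arrays left out, 0 to 1 member probe sets were called for HOXA9+MEIS1 against HOXA9+MIY. There was 1 without HOXA9+MIY week 3 array 2, and 1, Hoxa9 probe set 4987555 at -0.83, without HOXA9+MEIS1 week 4 array 2. Between the weeks 0 to 4 member probe sets were called (4 without HOXA9+MDHD week 4 array 1). The stricter filter left 19 member probe sets, and 2 of these were called between the weeks. The cause was not tested. Of 1367 values of members and Hoxa9 probe sets under alternatives, 12 newly passed the threshold, and 119 not called in either setting changed sign. With the replicate block Hoxa9 was at 0.08 (adjusted p = 0.325) for HOXA9+MEIS1 against HOXA9+MIY and -0.10 (adjusted p = 0.0652) between the weeks, and the block changed no member's call. The numbers are not shown to pair the arrays. Calls over all genes for HOXA9+MDHD against HOXA9+MIY ran from 11 with week 4 arrays only to 992 without HOXA9+MDHD week 4 array 2. For HOXA9+MEIS1 against HOXA9+MIY they ran from 850 to 3094, and for HOXA9+MEIS1 against HOXA9+MDHD from 221 to 1057. With a tolerance of 0.01, 2231, 409, 910 and 8233 genes were called in the 4 comparisons, and with 1e-06 2246, 396, 902 and 8241, against 2246, 396, 902 and 8241 as reported. Dim probe sets vary most, so small changes in them were not detectable with 4 arrays a group.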
